A study of Talinum fruticosum with 24 samples.

Results

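The PYR/PYL/RCAR proteins are the soluble receptors of abscisic acid (ABA), the hormone that plants make when water is short. The 9 members described here are PYR1 and PYL1, PYL2, PYL4, PYL5, PYL6, PYL7, PYL8 and PYL9, chosen by Arabidopsis thaliana gene identifier in a table of 22079 identifiers. Of these, 6 were in the table (PYR1, PYL2, PYL4, PYL5, PYL6 and PYL9) and 4 of the 6 carried enough counts to be tested (PYR1, PYL2, PYL4 and PYL9). PYL1 (AT5G46790), PYL7 (AT4G01026) and PYL8 (AT5G53160) were not analysed here.

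The table holds RNA-seq read counts from mature leaves of Talinum triangulare, labelled Talinum fruticosum, a plant able to switch from C3 photosynthesis to crassulacean acid metabolism (CAM) and back. All plants were well watered for 28 d and then droughted. CAM leaves were taken after 12 d of drought, and reC3 leaves after 12 d of drought followed by 2 d of re-watering, and both were sampled 4 times in zeitgeber time: at 6 h (midday, MD), 12 h (end of day, ED), 18 h (mid-night, MN) and 24 h (end of night, EN). Each of these 8 groups had 3 biological replicates, and how many plants went into a library is not given in the labels. All groups share the drought, so a fall in CAM leaves cannot be told apart from a rise on re-watering, nor CAM itself from water supply. Between modes, "fell" and "rose" below mean lower and higher in CAM than in reC3. MD and MN come from older libraries that were deposited before, and ED and EN from newly made ones, so that MD or MN against ED or EN also compares both library sets.

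In Arabidopsis, ABA closes a lid over the binding pocket of the receptor, and the closed receptor then blocks the clade A protein phosphatases 2C (PP2Cs). The PP2Cs otherwise hold down the SnRK2 kinases, which phosphorylate ABA-responsive transcription factors and the anion channel that closes stomata. PYR1, PYL1, PYL2 and PYL3 form dimers that come apart on binding ABA, whereas most other members are single proteins with a higher affinity. In drought the pathway acts in guard cells, in the vasculature and in the leaf as a whole, and in CAM plants stomata open mainly at night.

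Libraries totalled 4310225 to 8756145 counts. Levels are given in CPM, the count scaled by the library total times its TMM factor (0.608 to 1.43), not by the total alone. Each library correlated with the partners of its group at 0.941 to 0.986 on average (across genes), and replicates differed beyond counting noise (chi-square over its degrees of freedom 3.93 to 130). Of the 4 mesophyll markers in the table, all genes of photosynthesis, none was at 0 in either mode and 2 fell in CAM in the average over 4 times. Their summed level ran from 44116 to 104095 CPM in CAM and from 22574 to 256351 CPM in reC3. The mean sum was higher in CAM at ED (54033 against 27995 CPM). It was lower in CAM at MD (61260 against 94936 CPM), at MN (86662 against 90726 CPM) and at EN (96491 against 188020 CPM). Markers of other tissues also differed between modes. In the average over 4 times, where 32.5% of all genes fell and 32.3% rose, 4 of 5 vascular markers fell in CAM and 1 rose, 4 of 4 epidermis markers fell, 4 of 5 markers of dividing cells fell, and 4 of 6 guard cell markers fell and 1 rose. The summed levels were 216 to 630 CPM in CAM against 439 to 1271 CPM in reC3 for vascular markers, 245 to 562 against 365 to 870 CPM for epidermis, 12.4 to 26.7 against 20.7 to 158 CPM for dividing cells, and 33.8 to 226 against 48.0 to 148 CPM for guard cells. For guard cells the mean summed level was lower in CAM at MD (52.4 against 68.8 CPM) and at ED (38.1 against 52.7 CPM). It was higher in CAM at MN (122 against 67.6 CPM) and at EN (212 against 147 CPM). No marker in the table was at 0 throughout a mode. The part of these tissues in the receptor results was not tested, and in whole leaves fewer cells of a type cannot be told apart from less RNA per cell.

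Averaged over the 4 times, all 4 receptors tested were lower in CAM leaves than in reC3 leaves. PYR1, PYL2 and PYL4 were 4.04 to 4.58 times lower, and PYL9 1.77 times. Of all 14065 genes tested, 32.5% were lower in CAM by the same rule (adjusted p under 0.05, edgeR quasi-likelihood test with Benjamini-Hochberg adjustment). The median log2 fold change was -2.10 over the 4 receptors and 0.014 over all genes. At all 4 times PYR1 and PYL2 were lower in CAM, while 7.86% of all genes were. Reads of a Talinum transcript were assigned to Arabidopsis identifiers, and paralogs can share them, so the value of any single receptor is uncertain.

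**Figure D1:**
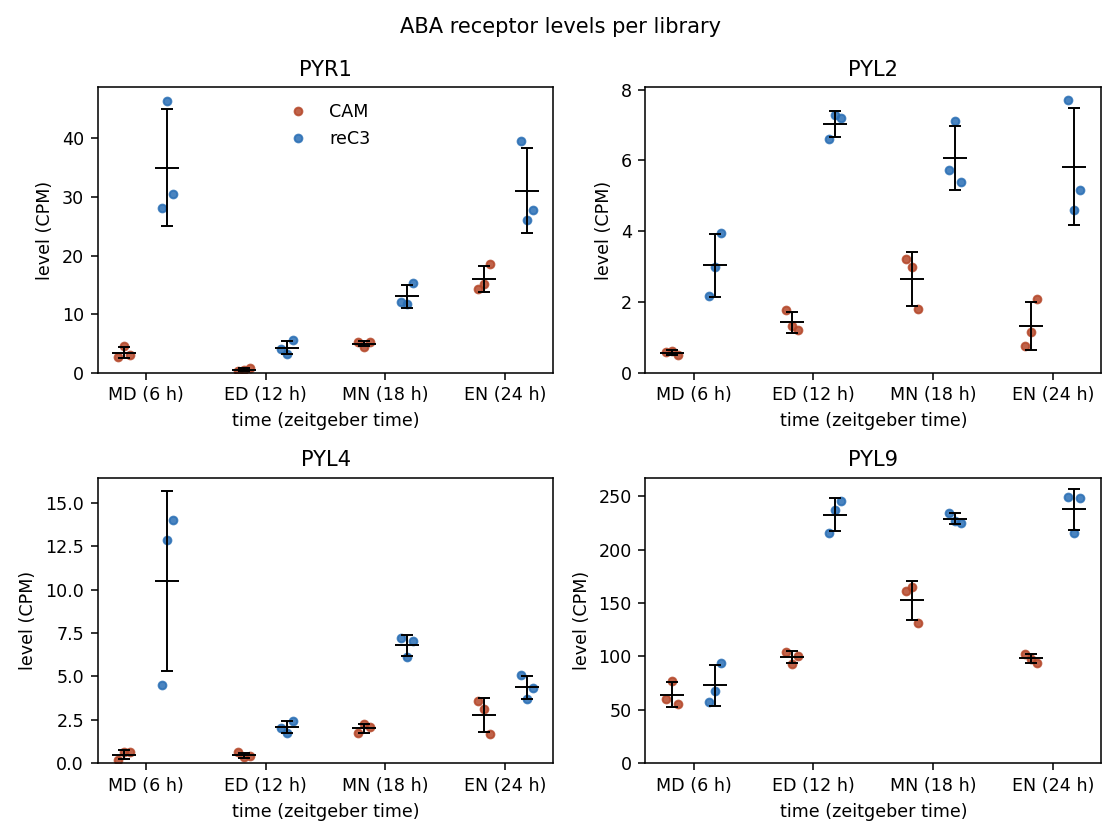
Levels (CPM) of PYR1, PYL2, PYL4 and PYL9 in all 24 libraries, by time on the x axis and with CAM left of reC3; each point is a library, and the black bars are the mean and SD over 3 libraries. The CAM libraries lie below the reC3 libraries in each panel and at each time, except for PYL9 at MD, where the modes overlap.

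Among the receptors of the dimeric group, PYR1 (AT4G17870) is the one first found through the synthetic agonist pyrabactin. Its mean was 6.22 CPM over the 12 CAM libraries, against 20.9 CPM over the 12 reC3 libraries, and the fitted log2 change was -2.18 ± 0.14 (standard error, SE; adjusted p = 1.28e-11, edgeR). Of the genes tested, 4.44% had a lower value. At MD it had 2.73, 4.54 and 2.98 CPM in CAM, against 28.1, 46.4 and 30.5 CPM in reC3. The highest CAM library thus stayed far under the lowest reC3 library at midday, with a fitted fold of 10.1.

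PYR1 was nearly gone from CAM leaves at ED, with 2, 4 and 6 counts or 0.253, 0.475 and 0.805 CPM, against 4.09, 3.24 and 5.56 CPM in reC3. At MN it had 5.20, 4.47 and 5.17 CPM in CAM, against 12.1, 11.7 and 15.3 CPM in reC3. At EN it had 14.4, 15.1 and 18.6 CPM in CAM, against 39.5, 26.1 and 27.8 CPM in reC3. The modes did not overlap at any time, and ED was the low point of both, although this ranking also compares both library sets. The log2 fold changes, CAM minus reC3, were -3.34 ± 0.26 for MD (adjusted p = 2.94e-09, edgeR) and -3.02 ± 0.39 for ED (adjusted p = 2.33e-06). By night they were -1.39 ± 0.24 for MN (adjusted p = 0.000104) and -0.96 ± 0.22 for EN (adjusted p = 0.00102).

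PYL2 (AT2G26040), which in Arabidopsis guard cells is sufficient for stomatal closure by ABA, had a mean of 1.49 CPM in CAM libraries, against 5.49 CPM in reC3 libraries (fitted log2 change -2.02 ± 0.17, adjusted p = 5.27e-10, edgeR). At MD it had 0.585, 0.627 and 0.497 CPM in CAM, against 2.18, 3.00 and 3.95 CPM in reC3. At ED it had 1.77, 1.31 and 1.21 CPM in CAM, against 6.61, 7.29 and 7.19 CPM in reC3. Midday was the low point of PYL2 in either mode, although this ranking also compares both library sets. The modes were well apart at MD and at ED.

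At MN, PYL2 had 3.20, 2.98 and 1.79 CPM in CAM, against 5.74, 7.11 and 5.39 CPM in reC3. At EN it had 0.748, 1.14 and 2.08 CPM in CAM, against 7.71, 4.61 and 5.16 CPM in reC3. The CAM libraries again all lay below the reC3 libraries, although at MD they rested on 3 or 4 counts each. By day the log2 fold changes were -2.40 ± 0.40 (MD) and -2.28 ± 0.30 (ED), and by night -1.21 ± 0.28 (MN) and -2.17 ± 0.33 (EN). The adjusted p was 0.00148 for MN and lower for the others (edgeR).

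Among the receptors of the group of PYL4, PYL5 and PYL6, PYL4 (AT2G38310) acts with PYL5 in the response of Arabidopsis stomata to CO2. Its mean was 1.45 CPM in CAM libraries, against 5.93 CPM in reC3 libraries (fitted log2 change -2.20 ± 0.20, adjusted p = 4.01e-09, edgeR). At MD it had 0.195, 0.627 and 0.662 CPM in CAM, from 1, 4 and 4 counts, against 4.54, 12.9 and 14.0 CPM in reC3. This was the lowest log2 fold change among the 4 receptors tested and the 4 times (-4.33 ± 0.43, adjusted p = 6.94e-08), and reC3 replicate 1 lay well below its 2 partners.

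At the other times the PYL4 difference was smaller. At ED it had 0.632, 0.357 and 0.403 CPM in CAM, against 2.04, 1.74 and 2.45 CPM in reC3 (fitted log2 change -2.11 ± 0.48, adjusted p = 0.00116). At MN it had 1.73, 2.24 and 2.09 CPM in CAM, against 7.20, 6.11 and 7.06 CPM in reC3 (-1.74 ± 0.33, adjusted p = 0.000278). At EN it had 3.59, 3.13 and 1.70 CPM in CAM, against 5.08, 3.72 and 4.33 CPM in reC3. The modes did not overlap there but lay close, and the difference did not pass (-0.61 ± 0.35, adjusted p = 0.151, edgeR).

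PYL5 (AT5G05440), whose overexpression makes Arabidopsis more drought resistant, and PYL6 (AT2G40330), which in Arabidopsis binds the jasmonate regulator MYC2, had too few counts to be tested. PYL5 had 7 counts in the 12 CAM libraries, 8 of them at 0, and 55 in the 12 reC3 libraries, of which 27 were in reC3 MD replicate 3. The ratio of the scaled counts, CAM over reC3, was 0.123 (exact 95% counting interval 0.0474 to 0.272), and 0.220 without that library (0.0810 to 0.515). PYL6 had 14 counts in CAM and 44 in reC3, a ratio of 0.309 (0.156 to 0.574). Both were thus fewer in CAM by counting, but these intervals cover counting error only and not the spread between plants. With no filter on low counts, PYL6 was at -1.72 ± 0.45 in the average (adjusted p = 0.00219, edgeR) and PYL5 passed as well (adjusted p = 0.00171), with no fold given since 2 of its groups were at 0. The PYL6 value includes CAM at MD, a group with 1 count, so its size is uncertain. In the CAM libraries at MD and at ED, PYL5 had no count, which allows up to 0.171 and 0.126 CPM.

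In the remaining group, PYL9 (AT1G01360, also RCAR1) is a receptor whose overexpression in Arabidopsis promotes survival of drought and senescence of old leaves. Its mean was 104 CPM in CAM libraries, against 193 CPM in reC3 libraries (fitted log2 change -0.82 ± 0.08, adjusted p = 7.25e-09, edgeR). At MD it had 59.9, 77.4 and 55.3 CPM in CAM, against 57.5, 67.5 and 94.3 CPM in reC3. The modes overlapped at midday, and the difference did not pass (-0.19 ± 0.16, adjusted p = 0.351). Without reC3 MD replicate 3 it was 0.04.

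At ED, PYL9 had 104, 93.2 and 101 CPM in CAM, against 216, 237 and 246 CPM in reC3 (fitted log2 change -1.23 ± 0.16, adjusted p = 2.41e-06). At MN it had 161, 165 and 132 CPM in CAM, against 235, 227 and 225 CPM in reC3 (-0.58 ± 0.16, adjusted p = 0.00512). At EN it had 102, 98.1 and 94.3 CPM in CAM, against 250, 216 and 248 CPM in reC3 (-1.28 ± 0.16, adjusted p = 1.06e-06). From ED to EN the reC3 leaves kept between 216 and 250 CPM, and every CAM library lay below them.

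At each time 3 or 4 of the 4 receptors tested were lower in CAM and none was higher. The count was 3 at MD, where 21.3% of all genes were lower, 4 at ED (23.9%), 4 at MN (20.5%) and 3 at EN (29.2%). All CAM libraries lay below all reC3 libraries in 3 of the 4 receptors at MD, as in 24.9% of all genes, and in 4 of 4 at ED (29.8%), at MN (29.4%) and at EN (27.9%). Within the earlier library set (MD and MN) the average log2 fold changes were -2.37 for PYR1, -1.81 for PYL2, -3.03 for PYL4 and -0.39 for PYL9. Within the new set (ED and EN) they were -1.99, -2.23, -1.36 and -1.25 in the same order. All 4 receptors passed in either set, with PYL4 further down in the earlier set and PYL9 in the new one.

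**Figure D2:**
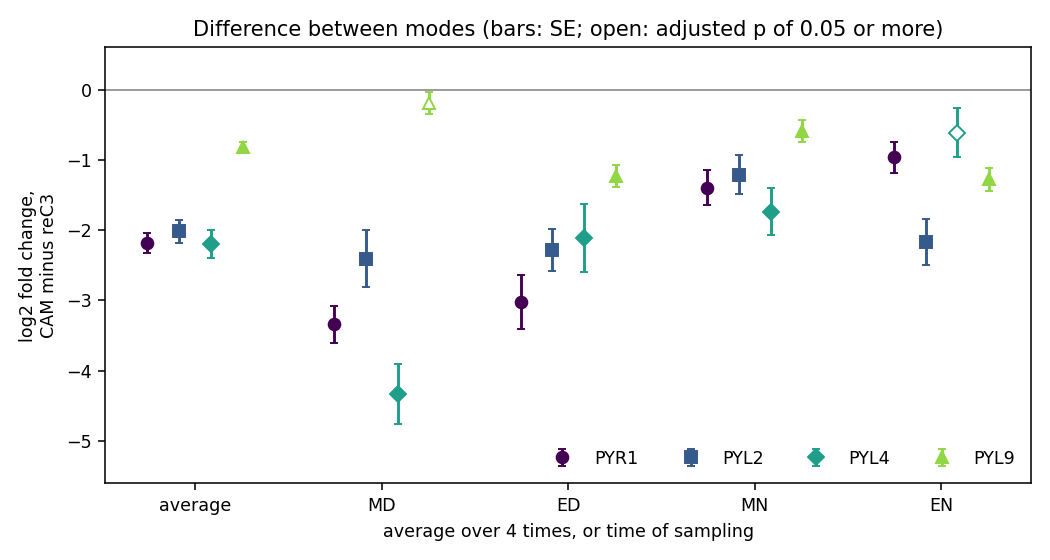
Log2 fold change between modes (CAM minus reC3) of the 4 receptors tested, as the average over 4 times and at each time; bars are standard errors and open symbols did not pass an adjusted p under 0.05. All values lie below 0, from -0.19 for PYL9 at MD to -4.33 for PYL4 at MD.

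The difference between modes changed with the time of day for PYR1 (interaction adjusted p = 4.36e-05, edgeR), PYL4 (adjusted p = 0.000301) and PYL9 (adjusted p = 0.00091), 3 of the 4 receptors, where 46.8% of all genes passed this test. For PYR1 and PYL4 the difference was greatest by day and smallest at EN, and for PYL9 it was smallest at MD. The interaction of PYL2 did not pass (adjusted p = 0.0779), and it passed without CAM MN replicate 3 (adjusted p = 0.0322) and without CAM EN replicate 3 (adjusted p = 0.0317).

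The receptors also differed from each other in the size of the difference between modes. Within each library the ratio of 2 receptors' counts does not depend on the scaling of libraries, and all 6 pairs of the 4 receptors were compared between modes by an exact two-sided permutation of the mode within each time (160000 arrangements, smallest possible p 1.25e-05, adjusted over the 6 pairs). This comparison was added after the values had been seen. Relative to PYL9, CAM was lower than reC3 by a log2 ratio of -1.15 for PYL2 (adjusted p = 0.000225, lower at 4 of 4 times), -1.35 for PYR1 (adjusted p = 0.00281, lower at 3 of 4 times) and -1.33 for PYL4 (adjusted p = 0.00755, lower at 3 of 4 times). At EN the ratios of PYR1 and PYL4 to PYL9 were higher in CAM, by 0.33 and 0.59. Each ratio to PYL9 differed most at MD, by -2.04 for PYL2, -3.15 for PYR1 and -3.97 for PYL4. The last rests on 1, 4 and 4 counts of PYL4 in CAM. Among PYR1, PYL2 and PYL4 no pair passed (adjusted p 0.726 to 0.956), with differences of -0.20, 0.19 and -0.02. These averages cover values of opposite sign. PYR1 over PYL2 was -1.11 at MD and 1.22 at EN, and PYL2 over PYL4 was 1.93 at MD and -1.48 at EN. PYR1 over PYL4 was 0.82 at MD and -0.96 at ED. The pairs were not tested at single times.

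Over the day and night, the order of the groups was not the same for all receptors, and this order also compares both library sets. PYR1 was highest in reC3 at MD (35.0 ± 9.96 CPM, SD, n = 3 libraries) and at EN (31.1 ± 7.30 CPM), which overlapped, then in CAM at EN (16.0 ± 2.24 CPM), overlapping with reC3 at MN (13.0 ± 1.94 CPM). It was lowest in CAM at ED (0.511 ± 0.278 CPM), below CAM at MD (3.42 ± 0.983 CPM) without overlap. PYL4 likewise had its highest mean in reC3 at MD (10.5 ± 5.18 CPM), which overlapped with reC3 at MN (6.79 ± 0.595 CPM), and its lowest in CAM at ED (0.464 ± 0.147 CPM), which overlapped with CAM at MD (0.495 ± 0.260 CPM). PYL9 had the 3 reC3 groups from ED to EN on top, all overlapping, and both MD groups at the bottom, overlapping too. PYL2 was highest in reC3 at ED (7.03 ± 0.366 CPM), overlapping with reC3 at MN and EN, and lowest in CAM at MD (0.569 ± 0.0664 CPM) without overlap.

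Each of the 4 receptors differed between times in CAM and in reC3 (any difference between times, which 77.9% of all genes passed in CAM and 72.7% in reC3). Times within a library set can be compared without crossing both sets, but the values still depend on the scaling of libraries. In reC3 the TMM factors were 1.33 to 1.43 at ED and 0.608 to 0.777 at EN. From day to night in CAM (MN minus MD), PYL2 (2.17 ± 0.41), PYL4 (1.95 ± 0.50) and PYL9 (1.25 ± 0.16) were higher at MN (3 of 4, against 25.6% of all genes; adjusted p = 0.00256 or lower, edgeR), and PYR1 measured 0.52 ± 0.29 (adjusted p = 0.137). In reC3, PYL2 (0.97 ± 0.28) and PYL9 (1.65 ± 0.16) were higher at MN, 2 of 4 against 21.7% of all genes, while PYR1 was lower (-1.42 ± 0.22, adjusted p = 2.33e-05), 1 of 4 against 21.7%. PYL4 measured -0.64 ± 0.29 (adjusted p = 0.0821), and -0.99 without reC3 MD replicate 1 (adjusted p = 0.00237). The change from MD to MN differed between modes for PYR1 (difference 1.94 ± 0.36, adjusted p = 0.0006) and PYL4 (2.59 ± 0.58, adjusted p = 0.00299), 2 of 4 against 10.2% of all genes.

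Across the night, PYR1 made the widest swing of the 4 receptors. In CAM its EN level exceeded its ED level by 4.93 ± 0.34 (adjusted p = 4.54e-11, edgeR), and in reC3 by 2.87 ± 0.25 (adjusted p = 1.82e-09). The swing was larger in CAM (difference 2.06 ± 0.46, adjusted p = 0.00155), which 17.2% of all genes showed in this direction. At ED the CAM level of PYR1 rests on 2, 4 and 6 counts. Over fits without 1 library the CAM swing ran from 4.62 to 5.37 and the difference from 1.75 to 2.50. PYL4 was also higher at EN in CAM (2.58 ± 0.47) and in reC3 (1.08 ± 0.36, adjusted p = 0.0134). The difference of its swings did not pass (1.498 ± 0.604, adjusted p = 0.0570). Its reC3 rise did not pass without reC3 ED replicate 2 (adjusted p = 0.0551) or when libraries were scaled by their totals alone (0.11, adjusted p = 0.821). PYR1 and PYL4 were thus 2 of 4 receptors higher at EN in either mode, against 31.5% of all genes in CAM and 29.1% in reC3. PYL2 and PYL9 measured -0.16 ± 0.37 and -0.02 ± 0.16 in CAM, and -0.27 ± 0.26 and 0.03 ± 0.16 in reC3. Under library totals alone, which moved the median of all genes in reC3 by -0.97, PYL2 and PYL9 in reC3 were at -1.27 (adjusted p = 0.000385) and -0.95 (adjusted p = 0.000312).

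**Figure D3:**
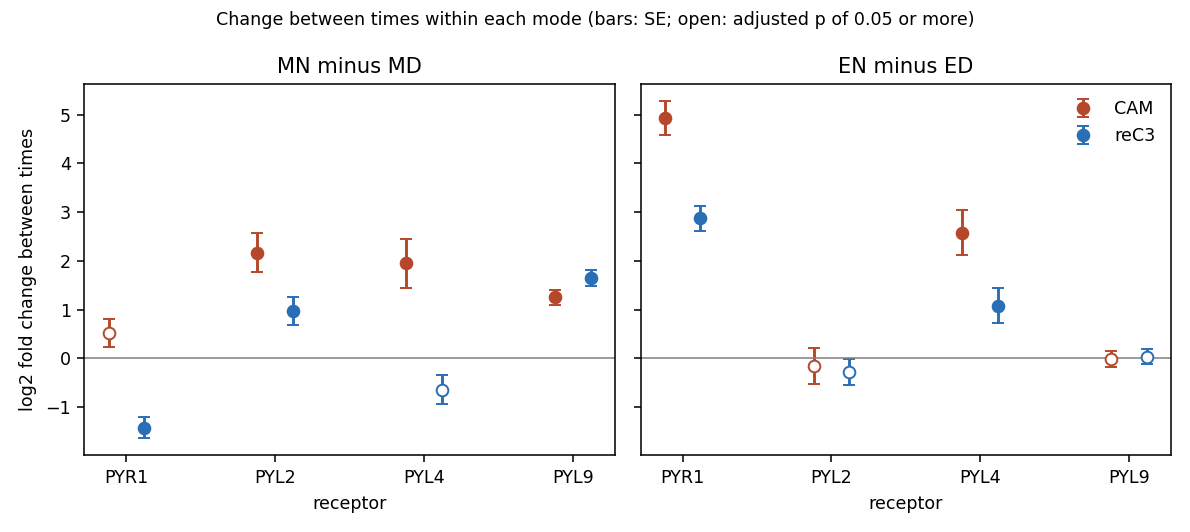
Log2 fold change between times within CAM and within reC3 for the 4 receptors tested, MN minus MD on the left and EN minus ED on the right; bars are standard errors and open symbols did not pass an adjusted p under 0.05. PYR1 shows the largest change, 4.93 in CAM from ED to EN, and PYL9 changes by 1.25 in CAM and 1.65 in reC3 from MD to MN. The PYR1 level in CAM at ED rests on 2, 4 and 6 counts.

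Across the 24 libraries and among the members tested, PYR1 and PYL4 followed each other (Pearson r of log2 CPM 0.84). PYL2 and PYL9 did as well (0.84), whereas PYR1 and PYL9 did so little (0.17). These correlations share the same libraries and the difference between modes, and are a description. The genes most like PYR1 were AT3G15810 (r = 0.94) and AT1G80120 (0.93), both listed with the unknown domain DUF567, and the cytochrome P450 AT1G33730 (0.93). Those most like PYL2 were PSD3 (AT4G25970, phosphatidylserine decarboxylase 3; 0.95), the calcium-dependent protein kinase family member AT1G49580 (0.94) and the alpha-fucosidase AT1G67830 (0.93). For PYL4 they were the calcium-binding protein AT1G05150 (0.91), the pectin lyase-like AT3G06770 (0.89) and RHM1 (AT1G78570, rhamnose biosynthesis; 0.88).

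The gene most like PYL9 was another ABA receptor, PYL10 (AT4G27920; r = 0.91), ahead of the beta-glucosidase AT1G61810 (0.89) and the CDPK-related kinase AT2G41140 (0.89). PYL10 lies outside the 9 members, in the same group of receptors as PYL9. PYL10 followed PYL2, of the dimeric group, as closely (r = 0.91). The ratio of counts on PYL9 to those on PYL10 had group means from 2.54 (MD) to 3.73 (MN) in CAM and from 1.94 (MD) to 3.03 (EN) in reC3. PYL10 had a mean of 32.5 CPM in CAM libraries, against 72.8 CPM in reC3 libraries (fitted log2 change -1.11 ± 0.10, adjusted p = 1.26e-09, edgeR). Whether reads of shared transcripts were split between both identifiers was not tested. With their counts summed, chosen after seeing the data, the average log2 fold change was -0.90. Of the other PYL genes in the table, PYL11 (AT5G45860) had 37 counts in CAM and 121 in reC3. No fold is given for PYL11, since CAM had 3 counts at MD and 1 at ED. It passed the filter on low counts mainly through reC3 at MD and EN (53 and 42 counts), where it was high. Its test between modes is therefore not given. PYL3 (AT1G73000), not tested, ran the other way, with 55 counts in CAM, 20 of them in 1 library at MN, and 28 in reC3, a ratio of 1.91 (exact 95% interval 1.19 to 3.12, counting error only). PYL13 (AT4G18620) had 0 and 3.

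**Figure D4:**
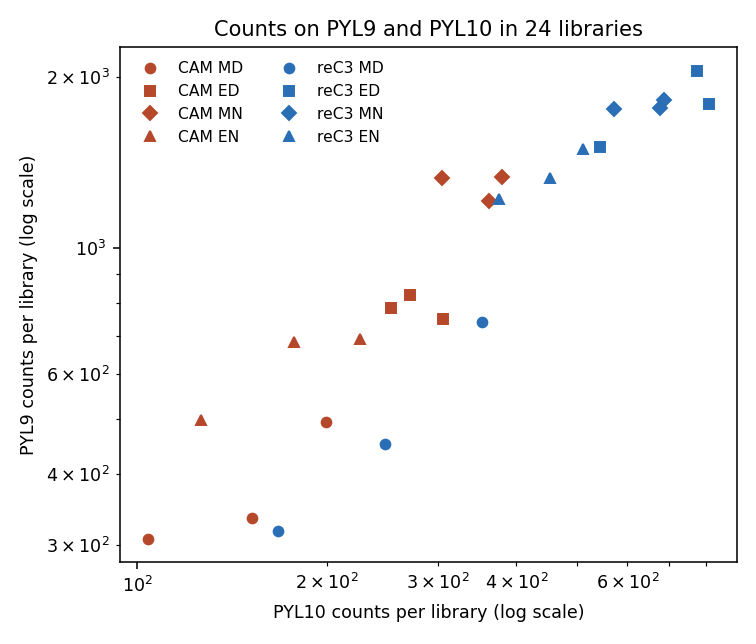
Raw counts on PYL9 (y axis) against PYL10 (x axis) in each of the 24 libraries, both on log scales, coloured by mode and with a symbol for each time. The libraries lie along a band, with the reC3 libraries of ED, MN and EN at its upper end and the MD libraries of both modes towards its lower end.

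The PP2Cs, the direct targets of the receptors, were higher in CAM. Of 6 tested, 6 rose in the average (median log2 fold change 1.33; 32.3% of all genes rose). The 3 with the smallest adjusted p were HAI2 (2.08 ± 0.15; 222 CPM in CAM, 49.7 CPM in reC3; adjusted p = 6.29e-11, edgeR), PP2CA (1.56 ± 0.12) and HAI1 (2.56 ± 0.20). By time, 4 PP2Cs rose at MD (22.7% of all genes rose), 3 at ED (21.5%), 6 at MN (18.1%) and 5 at EN (24.1%), and none fell. The log2 fold change of PP2CA was 1.64 for MD and 0.22 for ED by day, and 2.25 for MN and 2.14 for EN by night. Receptors and PP2Cs thus moved in opposite directions in the average, and both sets of values rest on the same 24 libraries. This list and the lists of pathway genes below were chosen with earlier results of these data known. Their counts beside the shares of all genes are thus a description.

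The SnRK2 kinases, which the PP2Cs inactivate, rose in the average in 4 of 4 tested (median 0.76), with SNRK2.2 at 0.89 ± 0.08 (adjusted p = 1.40e-09), OST1, the kinase of guard cells, at 0.63 ± 0.08 and SNRK2.7 at 0.74 ± 0.13. In the average 32.3% of all genes rose. No SnRK2 kinase passed at MD (22.7% of all genes rose) or at ED (21.5%), and 4 of 4 rose at MN (18.1%) and at EN (24.1%). The ABA-responsive transcription factors rose in 4 of 4 tested (median 0.72), with ABF1 at 0.75 ± 0.10, ABF2 at 0.89 ± 0.13 and ABF3 at 0.70 ± 0.13. By time 3 factors rose at MD, 4 at MN and 3 at EN, and at ED none rose and none fell. The lower levels of receptors in CAM and the higher levels of the genes below them were measured as transcripts, with no value for protein or hormone.

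Of 9 genes of ABA synthesis tested, 6 rose and 1 fell (median 0.42), where 32.3% of all genes rose and 32.5% fell. NCED9, NCED2 and NCED3, of the dioxygenases that start ABA synthesis from carotenoids, rose by 1.68 ± 0.19, 1.35 ± 0.18 and 1.41 ± 0.18 (adjusted p = 1.06e-06 or lower, edgeR), and as paralogs they may share reads. ABA1, zeaxanthin epoxidase, fell (-0.93 ± 0.13), and was named after its value was seen. At ED none of the 9 passed. Of the hydroxylases that break ABA down, 2 of 3 fell (32.5% of all genes), CYP707A2 (-3.12 ± 0.12, adjusted p = 9.12e-15) and CYP707A4 (-1.65 ± 0.18), and CYP707A1 rose (0.97 ± 0.16).

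Of the genes that move ABA or free it from its glucose ester, 1 of 3 rose and 1 fell, shares close to those of all genes (32.3% and 32.5%). The importer ABCG40 fell (-0.83 ± 0.09), the exporter ABCG25 measured 0.07 ± 0.16, and BGLU18, a glucosidase of the ester, passed in a fit that includes a group at 0. Its pooled counts had a ratio of CAM over reC3 of 1.84 (exact 95% interval 1.43 to 2.38, counting error only). Of the CAR proteins, which bring receptors to the plasma membrane, both tested fell (32.5% of all genes), CAR5 (-0.57 ± 0.08) and CAR9 (-0.30 ± 0.12, adjusted p = 0.0310). Of 6 genes of receptor turnover, 4 rose (32.3% of all genes) and 1 fell (median 0.33). By day, 3 rose at MD (22.7% of all genes) and 5 rose at ED (21.5%). None fell at either time, where 21.3% and 23.9% of all genes fell. By night, MN had 2 that rose (18.1% of all genes) and 1 that fell (20.5%). EN had 3 that rose (24.1%) and 3 that fell (29.2%). COP10, of the complex that marks receptors for the proteasome, rose by 0.97 ± 0.10 (adjusted p = 3.46e-08), and FREE1 and VPS23A, which sort receptors to the vacuole, by 0.61 ± 0.07 and 0.44 ± 0.09. DET1, of the same complex as COP10, fell (-0.21 ± 0.08, adjusted p = 0.0203), with 0.68 at ED and -1.30 at EN, and was likewise named after its values were seen.

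**Figure D5:**
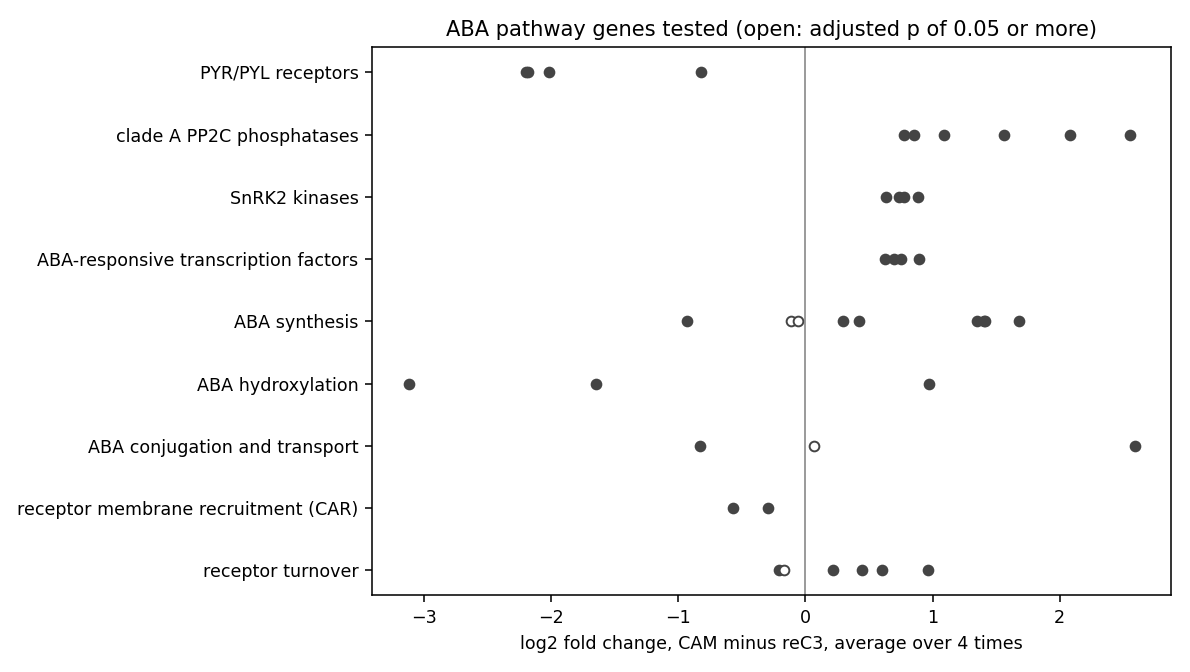
Log2 fold change (CAM minus reC3, average over 4 times) of each gene tested in the receptor group and in 8 lists of the ABA pathway; each point is a gene, and open points did not pass an adjusted p under 0.05. The 4 receptors lie between -2.20 and -0.82 (PYR1 and PYL4 nearly coincide), and the 6 PP2Cs between 0.78 and 2.56; the highest point of ABA conjugation and transport is BGLU18, whose fitted value is no measure of size since a group was at 0.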

How the data were processed

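Raw read counts per Arabidopsis thaliana identifier were deposited by the authors as 1 table for all 24 libraries, unscaled. The submitters' processing notes name CASAVA 1.8.2 and the TAIR10 build. Which aligner and counter were used is not given in the sources used here. A further 40 value columns were not used.

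Counts were tested with edgeR 4.0.16 (R 4.3.3): filterByExpr kept 14065 genes, TMM scaling, and a robust quasi-likelihood fit with a mean per group over all 24 libraries (common biological coefficient of variation 0.196). Genes pass at adjusted p under 0.05, Benjamini-Hochberg over all genes tested. SE is the fold change over the square root of F. Correlations used a prior count of 2. A count of 0 in a group allows 3 counts over that group.

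All members are named, with up to 3 genes per pathway list by adjusted p and the 3 genes of 10 CPM or more most like each member. The pathway lists hold 50 entries, 40 in the table. Members and lists were chosen with earlier results of these data known. The scripts were tested on simulated data. Alternatives were DESeq2 1.42.0, RLE scaling, library totals alone, no filter, a replicate block, fewer libraries and sets of times. Count ratios used a pseudocount of 0.5. Gene lengths were not used, so levels are not compared between genes.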

Additional observations from a re-analysis of the deposited data

Results flagged for a closer look

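The difference between modes changed with time, by the test of that difference itself, for PYR1 (interaction adjusted p = 4.36e-05, edgeR), PYL4 (adjusted p = 0.000301) and PYL9 (adjusted p = 0.00091). The change from MD to MN differed between CAM and reC3 for PYR1 (adjusted p = 0.000600) and PYL4 (adjusted p = 0.00299). PYR1 measured 0.52 in CAM, which did not pass, and was lower at MN in reC3 (-1.42). PYL4 was higher at MN in CAM (1.95) and measured -0.64 in reC3, which did not pass. For PYR1 the change from ED to EN also differed (adjusted p = 0.00155), being larger in CAM, where ED rests on 2, 4 and 6 counts. These modes differ in water supply as well, and 46.8% of all genes passed the interaction.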

How the results depend on the processing

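In the average over 4 times all 4 receptors tested were lower in CAM under each of the settings tried and without any 1 of the 24 libraries. At MD the count of receptors called was 5 with no filter on low counts, against 3, since PYL5 and PYL6 were then tested. For EN minus ED in reC3 leaving out 1 library each gave 1 to 2, and for the difference of that swing between modes 1 to 2, with 2 also under library totals alone, against 1. There PYL4 passed without CAM EN replicate 3 (adjusted p = 0.0317), without reC3 MD replicate 1 (0.0134), without reC3 MD replicate 3 (0.0490) and under library totals alone (0.0192). The values of PYL9 near 0 changed sign: EN minus ED in CAM was 0.033 under RLE and 0.033 under DESeq2 and -0.061 to 0.019 over fits without 1 library, EN minus ED in reC3 was -0.95 under library totals alone, -0.036 with PYL10 summed and -0.022 to 0.096 without 1 library, and the difference of these swings was 0.48 under library totals alone and -0.11 to 0.0052 without 1 library. PYL2 ranged from -0.59 to 0.13 for EN minus ED in CAM and from -0.31 to 0.40 for the difference of swings, and PYL9 at MD from -0.35 to 0.038. PYR1 from MD to MN in CAM passed under library totals alone (0.85, adjusted p = 0.0147), and PYL9's difference of that swing without reC3 MD replicate 3 (-0.62, adjusted p = 0.0326). The cause of these changes was not tested.

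Library totals alone moved the median of all genes by -0.22 at ED, 0.29 at EN, 0.32 and 0.39 for MN minus MD in CAM and reC3, -0.45 and -0.97 for EN minus ED in CAM and reC3, and 0.52 for the difference of the EN minus ED swings. The share of calls that were lower was then 69.9% against 52.6% at ED, 37.6% against 54.8% at EN, 31.5% against 50.9% and 22.3% against 49.98% for MN minus MD in CAM and reC3, 70.2% against 50.5% and 85.6% against 49.7% for EN minus ED in CAM and reC3, and 22.9% against 52.4% for the difference of swings.

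Samples share only a replicate number: 2 of 12 same-numbered pairs had a correlation of deviations over 0.1 (range -0.107 to 0.264), and 10 of 24 libraries correlated best with their own number. The replicate block left the average at 4 receptors called, PYR1 at -2.18, and called 9122 genes against 9112. At low depth, as for PYL2 and PYL4 in CAM at MD, counting error limits what can be seen.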
